A study of Homo sapiens with 6 samples.

Results

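The 10 genes described here encode core members of the BCL2 family, the proteins that set whether a cell's mitochondria release the factors that start apoptosis. They were chosen by name, as the genes mapping to BCL2, BCL2L1, MCL1, BCL2A1, BAX, BAK1, BID, BBC3, PMAIP1 and BCL2L11, and all 10 were found among the 61541 genes listed in the files. That choice was made with earlier results of these data known. RNA came from RCC4, a human clear cell renal cell carcinoma line, in 3 untreated biological replicates and 3 replicates exposed for 24 h to interferon gamma (IFNγ, 1000 U/mL) and tumour necrosis factor (TNF, 25 ng/mL), each replicate from 3 flasks. Native poly(A) RNA was read by direct RNA nanopore sequencing, in which each read is 1 RNA strand, and the values are read counts per gene. All 6 libraries come from a single cell line, and no library received either cytokine alone.

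Proteins of this family fall into 3 classes. Pro-survival members (BCL2, BCL-XL from BCL2L1, MCL1 and A1 from BCL2A1) bind and restrain the others. The effectors BAX and BAK (from BAK1) form pores in the outer mitochondrial membrane. BH3-only members (BID, PUMA from BBC3, NOXA from PMAIP1 and BIM from BCL2L11) sense stress, occupy the pro-survival proteins and activate the effectors. IFNγ acts on promoters that carry the motifs known as GAS and ISRE, and TNF acts through NF-kappaB, which binds kappaB motifs, and through caspase-8, which cleaves BID.

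Library totals ran from 3626000 to 4406296 counts, and values are given as CPM, which divides counts by TMM-normalised library size. A gene with 0 counts could have a level of up to 3 counts, or 0.674 to 0.863 CPM depending on the library, a limit that covers counting error alone. All 8 renal carcinoma markers looked at had counts (summed level from 6295 to 7852 CPM in untreated and from 8572 to 11670 CPM in treated libraries), among which VIM rose and PAX8 fell (edgeR adjusted p 0.0274 and 0.0316). Most of that sum was VIM, with means of 4592 CPM untreated and 7283 CPM treated. PAX8 had 144.7 and 83.8 CPM and CA9 38.5 and 38.0 CPM, so the rise of the sum does not speak for each marker. Of the markers of other cell types, the leukocyte list had counts in 1 of 5 genes (at most 0.288 CPM, with PTPRC, CD3E and LYZ among those at 0) and the endothelial list in 0 of 3, which allows up to the limit above. The fibroblast list had counts in 2 of 4 genes, COL1A1 and PDGFRB (54.6 to 73.9 CPM summed in untreated and 27.3 to 48.9 CPM in treated libraries), with COL3A1 and DCN at 0, and PDGFRB fell (edgeR adjusted p 0.0049). The part of these marker changes in the results below was not tested. Untreated replicate 3 stood apart from the other untreated libraries in several members below. Its reads fell on genes with a mean exonic length of 4484 bases, against 4204 to 4376 bases in the other 5 libraries.

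Sequence around the transcription start is shown for the 4 members that rose and for BCL2L14, a further family gene described below, because these genes rose with treatment. RefSeq promoter windows on GRCh38.p14, from 250 bases before to 50 bases after a start site, were on hand for 9 of the 10 members (all but MCL1). In the windows below, written 5′ to 3′ on the gene's strand, capitals mark matches on either strand to 4 motifs: GAS (TTCNNNGAA), ISRE (GAAA, any 2 bases, GAAA), the cyclic AMP response element that ATF proteins bind (TGACGTCA) and the kappaB motif.
BBC3, chr19:47232618-47232917, minus strand: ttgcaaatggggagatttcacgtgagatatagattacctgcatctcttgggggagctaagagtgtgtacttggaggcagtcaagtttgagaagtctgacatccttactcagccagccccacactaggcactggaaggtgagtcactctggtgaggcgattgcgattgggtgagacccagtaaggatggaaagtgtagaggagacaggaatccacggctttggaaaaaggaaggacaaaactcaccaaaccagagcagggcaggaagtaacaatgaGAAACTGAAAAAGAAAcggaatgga
PMAIP1, chr18:59899746-59900045, plus strand: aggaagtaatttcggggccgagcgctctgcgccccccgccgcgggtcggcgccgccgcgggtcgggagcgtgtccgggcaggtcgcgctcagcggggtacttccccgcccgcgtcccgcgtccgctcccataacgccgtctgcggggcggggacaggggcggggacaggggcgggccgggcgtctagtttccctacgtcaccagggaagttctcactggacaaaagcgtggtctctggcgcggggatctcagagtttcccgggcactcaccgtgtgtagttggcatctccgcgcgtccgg
BAK1, chr6:33580227-33580526, minus strand: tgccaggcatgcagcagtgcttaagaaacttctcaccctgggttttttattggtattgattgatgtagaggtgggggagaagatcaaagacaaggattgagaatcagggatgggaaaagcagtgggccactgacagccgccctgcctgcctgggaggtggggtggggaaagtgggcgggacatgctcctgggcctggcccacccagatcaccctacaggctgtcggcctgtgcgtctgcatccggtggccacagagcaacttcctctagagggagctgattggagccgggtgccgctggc
BCL2A1, chr15:79971147-79971446, minus strand: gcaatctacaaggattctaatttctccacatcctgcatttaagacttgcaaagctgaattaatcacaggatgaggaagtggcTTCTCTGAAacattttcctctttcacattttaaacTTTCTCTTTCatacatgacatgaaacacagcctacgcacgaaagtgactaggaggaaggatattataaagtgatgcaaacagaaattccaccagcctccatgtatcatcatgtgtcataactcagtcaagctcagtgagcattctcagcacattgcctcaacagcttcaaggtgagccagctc
BCL2L14, chr12:12071153-12071452, plus strand: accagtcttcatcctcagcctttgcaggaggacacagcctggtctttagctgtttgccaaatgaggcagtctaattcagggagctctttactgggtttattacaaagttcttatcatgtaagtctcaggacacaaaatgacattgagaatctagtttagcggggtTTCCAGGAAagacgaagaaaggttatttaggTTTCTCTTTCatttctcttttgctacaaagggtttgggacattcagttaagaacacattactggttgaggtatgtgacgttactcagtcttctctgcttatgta

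The BBC3 window held 2 overlapping ISRE matches, GAAACTGAAA and GAAAAAGAAA, beginning 25 and 31 bases after the start site. The BCL2A1 window held the GAS match TTCTCTGAA and, read on the other strand, an ISRE match (TTTCTCTTTC as printed). That pair of motifs also occurred in the window of BCL2L14 shown, with the GAS match TTCCAGGAA and the same 10 letters TTTCTCTTTC, and a second BCL2L14 start site had none. The BAK1 and PMAIP1 windows held none of the 4 motifs. Windows of the members that did not pass the test (BCL2, BCL2L1, BAX, BID and BCL2L11) held none either. Among all 35116 windows of this length, 3.57% held an ISRE match, 7.66% a GAS match, 5.91% a kappaB match and 1.85% a cyclic AMP response element. A match is a run of letters and not a measured binding site.

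All 10 members passed the filter on low counts and were tested, and 4 rose with treatment, which here means an adjusted p below 0.05 in the quasi-likelihood test of edgeR. They were PMAIP1, BBC3, BAK1 and BCL2A1, and they came from all 3 classes. In RNA pooled over a culture, a change in which cells are present and a change of RNA per cell cannot be told apart. BCL2A1 passed the filter through its treated libraries alone. Across the 10067 genes tested, 5.58% were called higher and 2.55% lower. None of the 10 members was called lower by edgeR, DESeq2 or limma voom, and 1 (BCL2) was lower at an unadjusted p under 0.05 in edgeR. At that unadjusted p, 891 of the 10067 genes tested were lower. DESeq2 called 6 of the 10 higher (6.48% of all genes) and limma voom 3 (5.55%). The fitted change was above 0 in 9 of the 10 members, against 47.3% of all genes tested. The median log2 fold change was 0.77 over the members and -0.03 over all genes tested. In 6 members every treated library lay above every untreated library, a pattern found in 13.9% of all genes tested. Because the members were chosen with earlier results of these data known, these comparisons with all genes describe the list and do not test it.

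**Figure D1:**
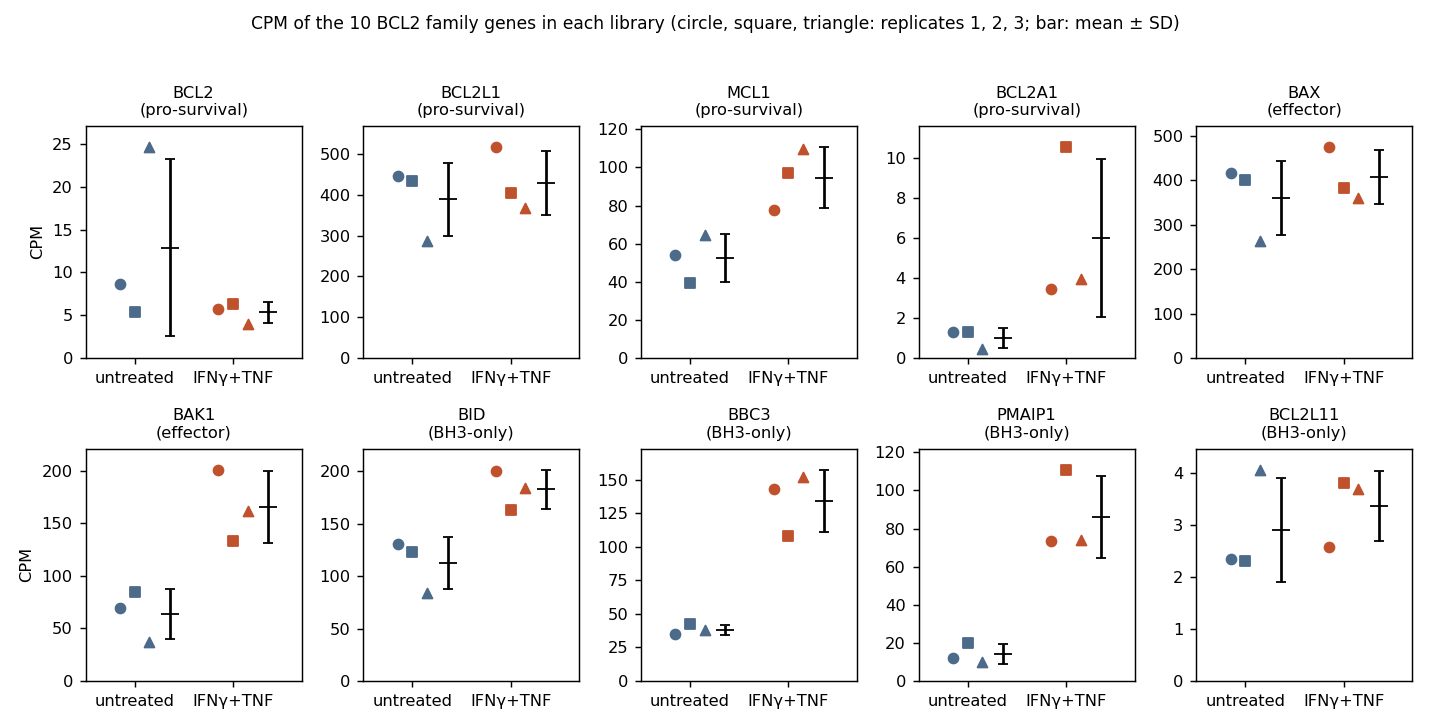
Level of each of the 10 genes in CPM (vertical axes, each from 0 with its own scale) in the 3 untreated and 3 IFNγ+TNF libraries, with the group mean and SD beside the points. Groups are fully separated for PMAIP1, BBC3, BAK1, BCL2A1, MCL1 and BID, and untreated replicate 3 (triangle) is the high point in BCL2 and the low point in BCL2L1 and BAX.

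Among the BH3-only genes, PMAIP1 (ENSG00000141682; chromosome 18, 59899996 to 59904305), which encodes NOXA, a binding partner of MCL1, rose. Its level was 12.0, 19.8 and 9.95 CPM in untreated replicates 1 to 3 and 73.4, 110.9 and 73.8 CPM in treated replicates 1 to 3. The lowest treated library was well above the highest untreated one. The group means of 13.9 ± 5.21 and 86.1 ± 21.6 CPM (SD, n = 3 each) differed 6.18-fold, and edgeR put the change at 2.63 ± 0.31 (log2, SE; adjusted p 0.00078).

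BBC3 (ENSG00000105327; chromosome 19, 47220822 to 47232766) encodes PUMA, which binds every pro-survival member. Untreated libraries held 34.7, 42.2 and 38.0 CPM and treated libraries 143, 108 and 152.2 CPM. The untreated values lay close together, and untreated replicate 3 did not stand apart here. The means of 38.3 ± 3.78 and 134.4 ± 23.3 CPM (SD, n = 3 each) gave a 3.51-fold difference, fitted by edgeR as 1.81 ± 0.20 (log2, SE; adjusted p 0.000608). PMAIP1 and BBC3 were called higher in every one of the other fits tried (16 for PMAIP1, 15 for BBC3), with adjusted p no higher than 0.00482 and 0.00525. Exons of the microRNA gene MIR3191 lie within those of BBC3 on the same strand and share 2.39% of its exonic bases.

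BID (ENSG00000015475; chromosome 22, 17734138 to 17774770), which carries the death receptor signal to mitochondria once caspase-8 has cut it, had 130.6, 123.3 and 83.9 CPM in untreated and 200.8, 163.3 and 184.6 CPM in treated libraries. The groups did not overlap, but the difference did not pass the test. Its log2 fold change was 0.70 (SE 0.21, 95% interval 0.23 to 1.17) with an edgeR adjusted p of 0.0808. DESeq2 called it higher (adjusted p 0.0443). BID was not past the threshold in any fit that left out 1 library (edgeR adjusted p from 0.0913 to 0.231).

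BCL2L11 (ENSG00000153094; chromosome 2, 111119378 to 111168445), which encodes BIM, was near the limit of detection, with 9, 9 and 18 counts in untreated and 9, 17 and 13 counts in treated libraries. The groups overlapped, and the 95% interval of the log2 fold change ran from -0.72 to 1.12 (edgeR adjusted p 0.874). A change of BCL2L11 anywhere within that interval remained possible, and the smallest change detectable at this depth was not estimated. Exons of ACOXL on the same strand share 2.88% of its exonic bases.

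Of the effectors, BAK1 rose and BAX did not pass the test. BAK1 (ENSG00000030110; chromosome 6, 33572547 to 33580293) had 69.6, 84.2 and 37.1 CPM in untreated and 200.8, 133.2 and 161.6 CPM in treated libraries. The lowest treated value, in replicate 2, was above the highest untreated one. Means of 63.6 ± 24.1 and 165.2 ± 34.0 CPM (SD, n = 3 each) differed 2.60-fold (edgeR log2 estimate 1.38 ± 0.30 SE, adjusted p 0.0225). Without treated replicate 1 or treated replicate 3 the adjusted p was 0.0802 and 0.0816, with log2 fold changes of 1.22 and 1.40.

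BAX (ENSG00000087088; chromosome 19, 48954815 to 48961798) had 416.6, 399.9 and 264.6 CPM in untreated and 475.3, 383.8 and 361.2 CPM in treated libraries. These ranges overlapped, and the low untreated value was that of replicate 3. The log2 fold change was 0.17 (SE 0.21, 95% interval -0.31 to 0.66; edgeR adjusted p 0.768), and it was -0.01 without untreated replicate 3. There were 5.99, 4.75 and 7.13 BAX counts for each BAK1 count in untreated libraries and 2.37, 2.88 and 2.236 in treated ones. Every treated ratio was below every untreated one, and a ratio within a library needs no scaling between libraries.

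Among the pro-survival genes, BCL2A1 (ENSG00000140379; chromosome 15, 79960892 to 79971196) passed the test at low levels. It encodes A1, a member of the class known as an NF-kappaB target in blood cells. Untreated libraries had 5, 5 and 2 counts and treated libraries 12, 47 and 14 counts, or 1.01 ± 0.487 and 5.995 ± 3.96 CPM (SD, n = 3 each). Treated replicate 2 held most of the treated counts. On the log2 scale edgeR fitted a rise of 2.57 ± 0.61 (SE; adjusted p 0.0331). That call was lost in limma voom (adjusted p 0.0605), with library totals alone (edgeR adjusted p 0.0506), and without treated replicate 2 (log2 fold change 1.91, edgeR adjusted p 0.125), treated replicate 3 (0.0636) or untreated replicate 2 (0.1).

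MCL1 (ENSG00000143384; chromosome 1, 150560895 to 150579738) encodes a short-lived survival protein that NOXA binds. It had 54.0, 39.4 and 64.4 CPM in untreated and 77.7, 96.8 and 109.6 CPM in treated libraries. The groups did not overlap, though treated replicate 1 and untreated replicate 3 lay close. Means of 52.6 ± 12.6 and 94.7 ± 16.1 CPM (SD, n = 3 each) gave a log2 fold change of 0.85 (SE 0.23, 95% interval 0.32 to 1.37), and the edgeR adjusted p of 0.0606 did not pass the threshold. MCL1 was called higher by DESeq2 (adjusted p 0.0173) and by edgeR without untreated replicate 3 (log2 fold change 1.01, adjusted p 0.0136), and not by limma voom (adjusted p 0.0597). Exons of ADAMTSL4-AS1 on the same strand share 5.27% of its exonic bases.

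BCL2L1 (ENSG00000171552; chromosome 20, 31664452 to 31723989) had 445.3, 433.6 and 285.8 CPM in untreated and 517, 404 and 366.3 CPM in treated libraries. It encodes the long survival form BCL-XL and a short pro-death splice form, which gene counts add together. Treated and untreated values overlapped, with a log2 fold change of 0.14 (SE 0.22, 95% interval -0.36 to 0.64; edgeR adjusted p 0.83). The sign turned without untreated replicate 3 (-0.04) and without treated replicate 1 (-0.01). Counts of BCL2L1 for each BAX count stayed between 1.01 and 1.09 in all 6 libraries, so the low values of both genes in untreated replicate 3 came in nearly the same proportion.

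BCL2 (ENSG00000171791; chromosome 18, 63123346 to 63320128), the founding member of the family, was the only one of the 10 with a negative log2 fold change. It had 33, 21 and 109 counts in untreated and 20, 28 and 14 counts in treated libraries, or 8.60, 5.40 and 24.7 against 5.75, 6.29 and 3.98 CPM. Apart from untreated replicate 3, all values lay between 3.98 and 8.60 CPM. The log2 fold change of -1.27 (SE 0.54) had an edgeR adjusted p of 0.233, and without untreated replicate 3 it was -0.39. The annotated exons of BCL2 span 12612 bases, the longest of the 10 members. With per-library offsets for exonic length, a fit chosen after seeing the data, the log2 fold change was -1.19. The part of exon length in the difference was not tested.

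**Figure D2:**
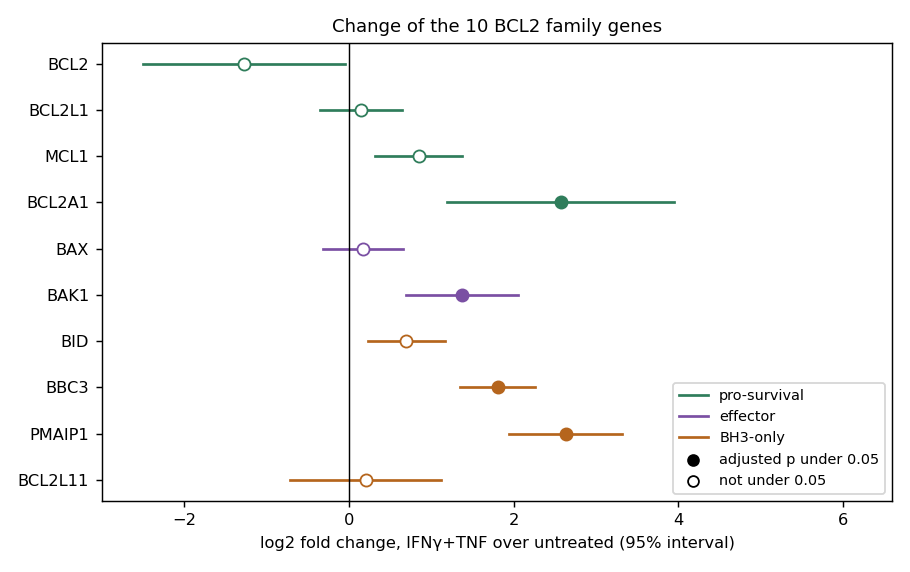
Fitted log2 fold change of each gene with its 95% interval, coloured by class, with filled points for an edgeR adjusted p under 0.05. PMAIP1, BCL2A1, BBC3 and BAK1 are filled and lie between 1.38 and 2.63, whereas BAX, BCL2L1 and BCL2L11 straddle 0 and BCL2 lies at -1.27 with a wide interval.

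Levels of the members were ordered on CPM, since each read is 1 RNA strand, and also on CPM per kilobase of annotated exon. On CPM the untreated order was BCL2L1 (388.2 ± 88.9), BAX (360.4 ± 83.4), BID (112.6 ± 25.1), BAK1 (63.6 ± 24.1), MCL1 (52.6 ± 12.6), BBC3 (38.3 ± 3.78), PMAIP1 (13.9 ± 5.21), BCL2 (12.9 ± 10.3), BCL2L11 (2.91 ± 1.00) and BCL2A1 (1.01 ± 0.487; SD, n = 3 each). Neighbours in that order that lay within the larger of their SDs were BCL2L1 and BAX, BAK1 and MCL1, PMAIP1 and BCL2, and BCL2 and BCL2L11. In treated cells BCL2L1 (429.1 ± 78.4) and BAX (406.8 ± 60.4) were again highest on CPM and within 1 SD. They were followed by BID (182.9 ± 18.8), BAK1 (165.2 ± 34.0), BBC3 (134.4 ± 23.3), MCL1 (94.7 ± 16.1) and PMAIP1 (86.1 ± 21.6). BID and BAK1, BAK1 and BBC3, and MCL1 and PMAIP1 lay within the larger of their SDs there. Lowest on CPM in treated cells were BCL2A1 (5.995 ± 3.96), BCL2 (5.34 ± 1.21) and BCL2L11 (3.37 ± 0.676), the first 2 within 1 SD.

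Division by exon length changed parts of that order. The length is that of all annotated exons of a gene and not of the RNA that was read. As each read is 1 RNA strand, the order on CPM is the one that counts RNA strands. On CPM per kilobase BAX (139.3 ± 32.2) came above BCL2L1 (92.5 ± 21.2) in untreated cells and BAK1 (28.8 ± 10.9) beside BID (25.5 ± 5.69). BCL2 (1.02 ± 0.818), which has the longest exons, was then level with BCL2A1 (1.02 ± 0.489; SD, n = 3 each). In treated cells PMAIP1 (39.4 ± 9.86) came above MCL1 (15.2 ± 2.58) per kilobase, in contrast to their CPM.

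Summed over the 10 genes, counts ran from 3595 to 4507 in untreated and from 5004 to 6326 in treated libraries. The 4 BH3-only genes held 15.3%, 16.3% and 16.7% of these counts in untreated replicates 1 to 3 and 24.7%, 27.2% and 29.2% in treated replicates 1 to 3. Their mean share differed by 10.9 percentage points. The 4 pro-survival genes held 43.7% ± 2.28 in untreated and 35.3% ± 1.20 in treated libraries, and the 2 effectors 40.2% ± 2.68 and 37.7% ± 1.85 (SD, n = 3 each). These shares are relative, and no class had a lower mean summed CPM in treated libraries, though the pro-survival libraries overlapped between groups. It was 454.7 ± 70.3 and 535.2 ± 61.9 for the pro-survival genes, 424 ± 106 and 572 ± 90.2 for the effectors and 167.7 ± 27.8 and 406.7 ± 18.1 for the BH3-only genes (SD, n = 3 each). The lower pro-survival share was not common to its members. BCL2L1 went from 36.9% ± 1.52 to 28.2% ± 2.33 of the summed counts and BCL2 from 1.41% ± 1.41 to 0.354% ± 0.0825. MCL1 went from 5.31% ± 2.34 to 6.37% ± 1.62 and BCL2A1 from 0.0928% ± 0.0322 to 0.409% ± 0.292 (SD, n = 3 each). Within the effectors, BAX went from 34.3% ± 1.52 to 26.8% ± 1.28 of the summed counts and BAK1 from 5.93% ± 1.37 to 10.8% ± 1.30. For each MCL1 and PMAIP1 pair, a library held 4.50, 1.99 and 6.48 MCL1 counts per PMAIP1 count in untreated cells and 1.06, 0.873 and 1.49 in treated cells. These shares and ratios are descriptions of the libraries, with no test, since the genes were chosen with earlier results known.

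**Figure D3:**
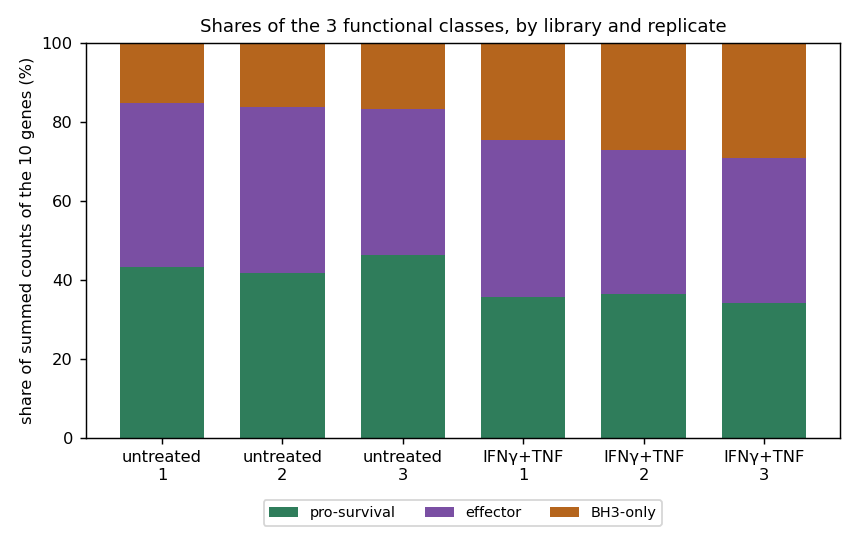
Share of the summed counts of the 10 genes held by the pro-survival, effector and BH3-only classes in each of the 6 libraries, as stacked bars from 0 to 100%. The BH3-only part is between 15.3% and 16.7% in the untreated libraries and between 24.7% and 29.2% in the treated ones.

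Another 13 genes of the wider family were then examined, and 1 of the 9 that could be tested, BCL2L14, was called higher, with 0 called lower by edgeR, DESeq2 or limma voom (0 lower at an unadjusted p under 0.05 in edgeR). With 9 genes, 1 call is near the 5.58% of all genes called higher. Lower at that unadjusted p were 891 of the 10067 genes tested. BCL2L14 (ENSG00000121380; chromosome 12, 12049844 to 12211084) encodes BCL-G. It had 0 counts in all 3 untreated libraries and 19, 27 and 31 counts in treated libraries, or 6.78 ± 1.78 CPM (SD, n = 3). Its treated mean was 9.11 times a level of 3 counts per untreated library. Only the untreated side of that fold is a limit, since the treated mean carries its own spread. The edgeR adjusted p was 0.00158, and BCL2L14 passed the filter through its treated libraries alone. All 16 of the other fits called it higher.

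BIK, a BH3-only gene chosen after its values were seen, had 1, 11 and 16 counts without and 28, 21 and 33 counts with the cytokines. The groups did not overlap in CPM, but it did not pass the test (edgeR log2 estimate 1.68 ± 0.63 SE, adjusted p 0.17), and without untreated replicate 3 it did (0.0492). BCL2L13, likewise named after its values were seen, had groups that did not overlap, with means of 58.8 ± 7.92 and 70.8 ± 3.96 CPM (SD, n = 3 each; edgeR adjusted p 0.509). The 3 family genes of highest level did not differ beyond their spread. BOK, an effector-like gene, had 206.9 ± 46.4 and 172.2 ± 38.9 CPM, BNIP3, a mitophagy receptor gene induced by hypoxia, 189.9 ± 8.11 and 198.3 ± 26.9 CPM, and the BH3-only gene BAD 122.7 ± 32.6 and 125.4 ± 20.0 CPM without and with treatment (SD, n = 3 each). BCL2L10 had 0 counts in all 6 libraries, and BMF, HRK and BCL2L15 had too few to be tested.

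Of 20 genes that act upstream or downstream of the mitochondrial step, 17 were tested and 4 were called higher, among them CASP8, CFLAR and BIRC3, against 5.58% of all genes tested. None was called lower by edgeR, DESeq2 or limma voom, and 1 was lower at an unadjusted p under 0.05 in edgeR. Over all 10067 genes tested, 891 were lower at that unadjusted p. As this list was also chosen with earlier results of these data known, these shares describe it and do not test it. CASP8, the initiator caspase that cuts BID, stood at 9.39, 7.98 and 9.27 CPM in untreated and 24.5, 19.5 and 25.0 CPM in treated libraries. The groups were well separated (edgeR log2 estimate 1.37 ± 0.24 SE, adjusted p 0.00709), and the call was lost without untreated replicate 2 (0.0501). CFLAR, which encodes the caspase-8 inhibitor FLIP, also rose, with 85.8 ± 3.55 CPM without and 186.4 ± 13.8 CPM with treatment (SD, n = 3 each; edgeR log2 estimate 1.12 ± 0.16 SE, adjusted p 0.00292). BIRC3, which encodes the ubiquitin ligase cIAP2, had 4, 12 and 8 counts without and 20, 121 and 41 counts with the cytokines, with treated replicate 2 the highest. Like BCL2A1, it passed the filter because of its treated libraries. Its log2 fold change of 2.90 (SE 0.63) had an edgeR adjusted p of 0.0215, which became 0.0708 without treated replicate 2 and 0.0555 without treated replicate 3. BIRC3 was not called in limma voom either (adjusted p 0.0643).

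CASP9, the initiator that acts after cytochrome c release, had 15.0 ± 2.76 and 13.3 ± 1.01 CPM, and CYCS, which encodes cytochrome c itself, 163 ± 24.7 and 131.4 ± 46.4 CPM (SD, n = 3 each). Neither passed the test (edgeR adjusted p 0.819 and 0.611). Log2 fold changes of the 13 tested genes that were not called ran from -0.65 to 0.45.

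A list of 16 genes held regulators of the transcription of BBC3, PMAIP1 or BCL2L11 or of the stability of their products and of MCL1. It also held CDKN1A, which is not such a regulator. Of the list, 12 genes were tested and 1, ATF3, was called higher, a share near the 5.58% of all genes called higher. None was called lower by edgeR, DESeq2 or limma voom (0 lower at an unadjusted p under 0.05 in edgeR, against 891 of all 10067 genes). ATF3, a stress-induced transcription factor gene, had 16.4, 11.3 and 7.01 CPM in untreated and 129.8, 115.9 and 124.9 CPM in treated libraries. The treated values were close together, and the 10.7-fold difference was fitted as 3.42 ± 0.29 (log2, SE; edgeR adjusted p 0.000123). ATF4, another stress-induced factor, had 208.2 ± 13.5 and 221.1 ± 31.9 CPM, and MYC 165.8 ± 13.0 and 154.8 ± 12.8 CPM (SD, n = 3 each; edgeR adjusted p 0.876 and 0.843).

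CDKN1A, which encodes the cell cycle inhibitor p21, had 179.2 ± 9.40 and 146.1 ± 18.3 CPM, with every treated library below every untreated one (log2 fold change -0.30, 95% interval -0.68 to 0.09, edgeR adjusted p 0.402). That pattern was found in 11.9% of all genes tested, and CDKN1A did not pass the test.

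**Figure D4:**
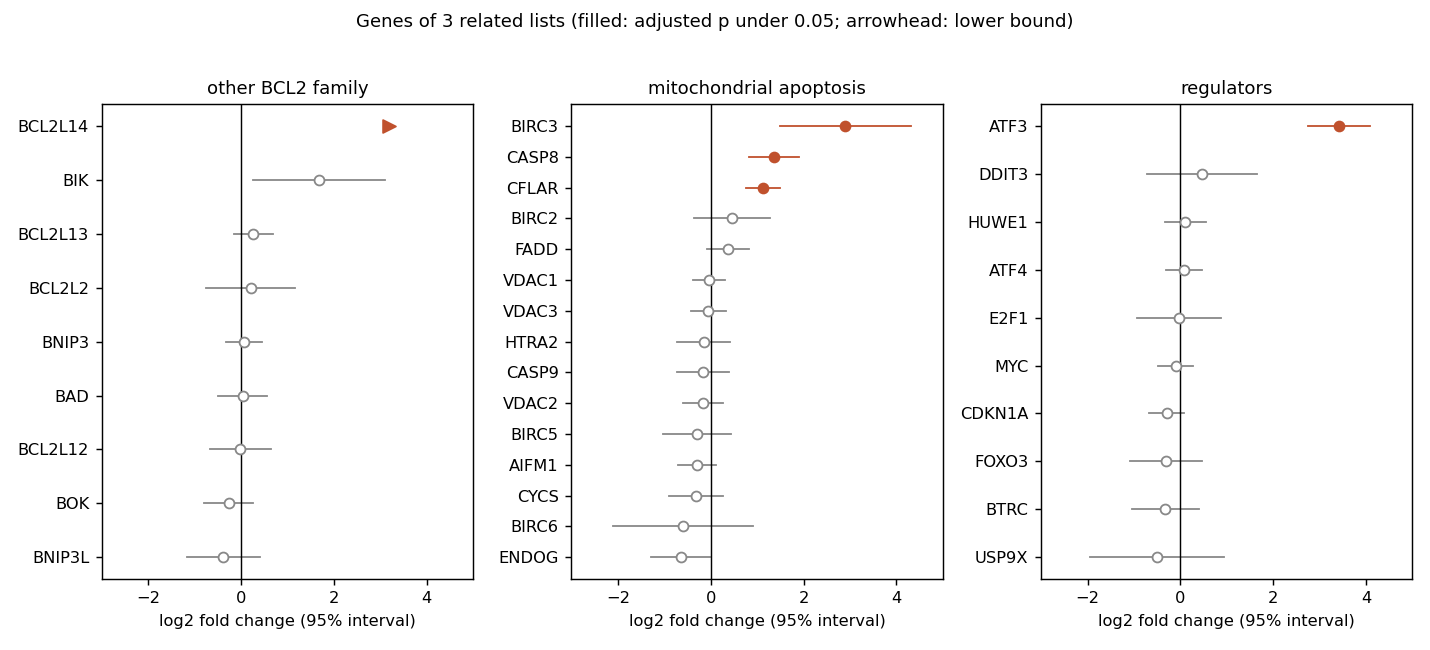
Log2 fold change with its 95% interval (horizontal axes) for tested genes of the wider BCL2 family, the mitochondrial apoptosis list and the list of regulators, with filled points for an edgeR adjusted p under 0.05. BCL2L14 is drawn as an arrowhead at its lower bound, and BIRC3, CASP8, CFLAR and ATF3 are the other filled points.

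For each member that rose, the 3 genes nearest to it in log2 CPM profile over the 6 libraries, each less its untreated mean, were found by Euclidean distance. The search covered 6737 genes averaging 10 CPM or more. Nearest to BBC3 were LINC00623 (distance 0.24), CD40 (0.307) and ENSG00000277117 (0.324), and nearest to PMAIP1 were LINC01358 (0.6), ZFP36L2 (0.745) and LINC00944 (0.752). BAK1 lay nearest to CDC25B (0.366), NFKBIE (0.399) and RELB (0.406). The neighbours of BCL2A1 were farther away, with CD274 at 0.91, HLA-K at 0.948 and DDX60L at 1.14. BCL2A1 itself averaged 1.01 CPM in untreated and 5.995 CPM in treated libraries, below the 10 CPM set for the search. The log2 CPM values used a prior count of 2, which shrinks the step of a gene with so few counts. The part of low counts in its distances was not tested. CD40, at 79.6 CPM without and 306.8 CPM with treatment, encodes a receptor of the TNF receptor family, and NFKBIE and RELB encode parts of the NF-kappaB system. Distances over 6 libraries rest mainly on the step between the 2 groups.

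**Figure D5:**
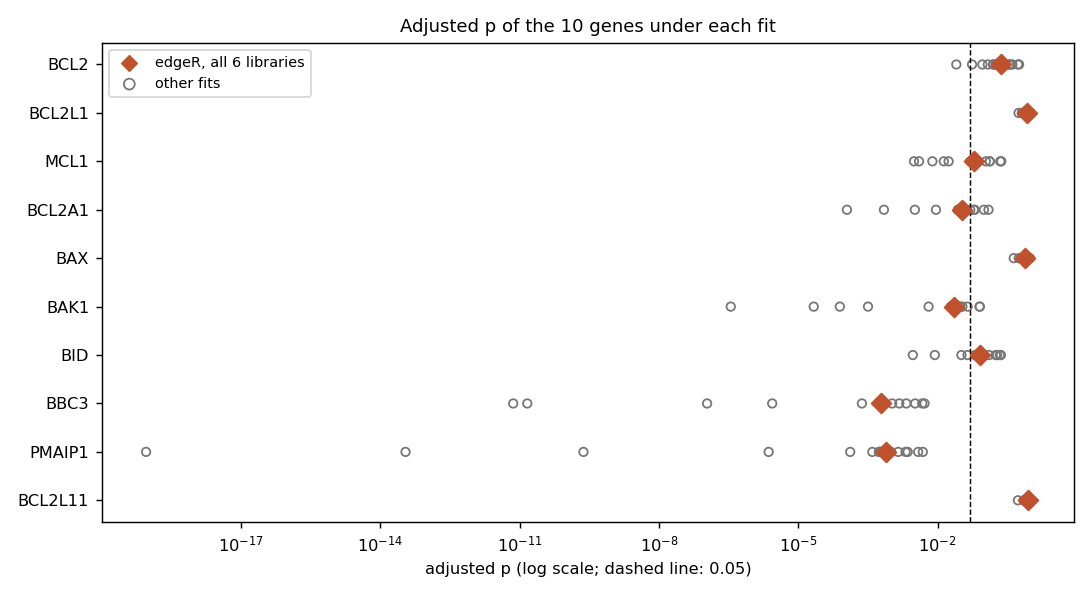
Adjusted p of each of the 10 genes (log axis) in edgeR with all 6 libraries (diamonds) and in the other fits (circles), with a dashed line at 0.05. All points of PMAIP1 and BBC3 lie left of the line, points of BAK1, BCL2A1, MCL1, BID and BCL2 fall on both sides, and all points of BAX, BCL2L1 and BCL2L11 lie right of it.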

How the data were processed

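The deposited values are raw read counts per gene, 1 file per library, with no normalisation. Per the file headers, featureCounts 2.0.1 summed exons of Ensembl release 105 (GRCh38) per gene in long-read mode with strand-specific counting. The options to count multi-mapping reads or reads over several genes do not appear in those headers. The submitters' processing notes name minimap2 2.24, SAMtools 1.16 and featureCounts 2.0.0, and the series design text says that reads with a quality above 7 were used. Groups and replicate numbers came from the sample titles, since the file headers carry the word dmso in all 6 libraries and the labels name no vehicle.

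Counts were tested with edgeR 4.0.16 (R 4.3.3), in a model with group alone, after TMM scaling and filterByExpr, by its quasi-likelihood F test. P-values were Benjamini-Hochberg adjusted over all 10067 genes tested and called below 0.05. SE is the absolute log2 fold change over the square root of F, and intervals use it. The code was tested on simulated counts. Alternatives were DESeq2 1.42.0 and its size factors, limma voom 3.58.1, library totals, 2 other filters, a replicate block, genes without shared exons and leaving out each library. A fit with 1 surrogate variable (sva 3.50.0) and one with exonic length offsets were chosen after seeing the data. The members, lists and naming rule were chosen with earlier results of these data known. Values of some list members are left out of the text and plots. The rule otherwise named all members, every called gene of the 3 related lists, up to 3 of highest mean CPM where few were called, and the 3 nearest profiles of each called member. CASP9, CYCS, BIK, BCL2L13, BCL2L10, BMF, HRK and BCL2L15 were named outside it, after their values were seen. No protein sequences were used here.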

Additional observations from a re-analysis of the deposited data

How the results depend on the processing

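Of the 10 members, PMAIP1 and BBC3 kept their call in all other fits. The count of members called, 4, ran from 2 to 5 when 1 library was left out. It was 2 without treated replicate 3 (3.42% of all genes higher) and 5 without untreated replicate 3 (7.16%). When all genes with any count were tested it was 7, with 6 higher and BCL2 lower (4.43% of genes higher, 2.5% lower). That filter also gave log2 fold changes of 0.88 for MCL1 (edgeR adjusted p 0.00776), 0.72 for BID (0.0327) and -1.23 for BCL2 (0.0254), all past the threshold. DESeq2 called MCL1 (0.86) and BID (0.71), and 1 surrogate variable did too (0.85 and 0.71), each calling 6 members, the latter with 10.7% of all genes higher. BCL2A1 was not called with library totals alone (2.50; 4.82% of all genes higher) or in limma voom (2.45), each of which called 3 members. Leaving out 1 library gave log2 fold changes from 0.68 to 1.01 for MCL1, from 1.91 to 2.85 for BCL2A1, from 1.098 to 1.63 for BAK1, from -0.042 (without untreated replicate 3) to 0.275 for BCL2L1, where it was -0.007 without treated replicate 1, from -0.013 to 0.312 for BAX and from -1.63 to -0.39 for BCL2. BCL2 lost most of its difference without untreated replicate 3. The cause of these changes was not tested.

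Over all genes, 819 calls became 1328 with all genes that had a count (19158 tested in place of 10067), 1845 with 1 surrogate variable, and 455 (without treated replicate 3) to 1178 without 1 library, with 465 without untreated replicate 2. Library totals alone gave 485 higher and 364 lower, against 562 and 257, and moved the median log2 fold change to -0.13. In the wider family the count of 1 became 2 with all genes that had a count and with 1 surrogate variable, where BIK joined, and ran from 1 to 2 without 1 library. In the mitochondrial apoptosis list the replicate block and 1 surrogate variable each called 4 genes higher and 1 lower (6.02% and 7.6% of all genes lower). The replicate block gave 1513 calls over all genes (9.01% higher), 6 among the members, 2 in the wider family, and log2 fold changes of 0.86 for MCL1 (edgeR adjusted p 0.00311) and 0.72 for BID (0.00874), both then called. The labels do not say that replicate numbers mark a shared batch, so the numbers were not taken to pair the samples. Deviations of same-numbered libraries correlated at 0.651, -0.0037 and 0.374, and treated replicate 2 correlated best with untreated replicate 3. These mixed values are a hint from the data and not from the design, and do not settle whether samples were paired.

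Signs turned for genes near no change. With library totals alone the log2 fold change was -0.041 for BNIP3, -0.065 for BAD and -0.025 for ATF4. With exonic length offsets it was -0.032 for BNIP3, -0.086 for BAD and -0.017 for ATF4. Without 1 library, values ran from -0.006 to 0.128 for BNIP3, -0.18 to 0.17 for BAD, -0.022 to 0.229 for ATF4, and -0.162 to 0.015 for MYC. BCL2L11 and BCL2A1, with 18 counts or fewer in every untreated library, are the members that depth limits most.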
